A study of Mus musculus with 11 samples.

Results

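Protein digestion and amino acid transport in the mouse small intestine was described through 31 genes, chosen by symbol: 4 brush border or luminal endopeptidases, 8 brush border exopeptidases, 3 cytosolic peptidases, 10 transporters of the apical membrane and 6 basolateral or other transporters. All 31 were among the 24294 gene symbols of the deposited table. The rule itself uses no measured value, but the list was drawn up with earlier results of these data known. RNA-seq of the intestine was deposited for 4 libraries labelled HLJDD (Huang Lian Jiedu Decoction, a multi-herb preparation), 4 labelled HFD and 3 labelled ND. The study's title speaks of obese mice, but the labels do not spell out HFD or ND. None of the labels gives strain, sex, age, diets, dose or duration, or says whether the HLJDD mice also received the HFD. The labels name no separate animals either, so p-values measure the spread between libraries only.

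Dietary protein is cut to oligopeptides by secreted proteases, and enzymes anchored in the enterocyte brush border shorten these to small peptides and free amino acids. Peptides enter the cell with protons through the transporter Slc15a1 and are split by cytosolic peptidases, while free amino acids use carriers of overlapping specificity, several of which work as pairs of a heavy and a light chain. Basolateral carriers then pass amino acids to the blood.

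Values were FPKM, fragments scaled to gene length and to the library total, so that levels of different genes are on 1 length-corrected scale. The libraries held 30100481 to 37940645 reads, recovered as whole reads from the FPKM. Mitochondrial genes took 40.73% of the reads of HLJDD 2 and 32.44% of HFD 1, against 10.4% to 19.26% in the other HLJDD and HFD libraries and 11.18% to 14.38% in ND. Each of these 2 libraries was the lowest of its group for 26 of the 28 genes tested below (20 for HFD 1 and 22 for HLJDD 2 after median-ratio scaling), and calls that change without both are given with their value without them. Over all tested genes the median log2 change from ND was -0.205 in HFD and -0.127 in HLJDD, and that of HLJDD relative to HFD was 0.0611. Median-ratio scaling brought these medians to -0.000209, 0.0189 and 0.00334.

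Genes that mark the 2 ends of the small intestine also differed between ND and the other groups. Fabp6, the ileal bile acid binding protein, stood at 1.16, 0.586, 2.27 and 0.212 FPKM in HLJDD, at 4.31, 3.54, 2.32 and 1.26 FPKM in HFD and at 9822, 6702 and 397 FPKM in ND. Slc10a2, the ileal bile acid carrier, stood at 0.0729 to 0.432 FPKM in HLJDD, 0.146 to 0.551 FPKM in HFD and 7.70 to 256 FPKM in ND. The ND libraries were far above the rest in both genes, and ND 3 was the lowest of them. Gata4, a transcription factor of the proximal gut, stood at 26.4 to 36.6 FPKM in HLJDD, 25.9 to 35.7 FPKM in HFD and 9.75, 15.5 and 24.7 FPKM in ND. Fabp1, a fatty acid binding protein most abundant proximally, stood at 8372 to 14691 FPKM in HLJDD, 11349 to 14642 FPKM in HFD and 476, 1940.2 and 4390.3 FPKM in ND. The summed level of the 7 distal markers was 242 to 424 FPKM in HLJDD, 296 to 433 FPKM in HFD and 1289 to 11642 FPKM in ND, and 5 of the 6 tested were lower in HFD than in ND (limma, Benjamini-Hochberg). The 6 proximal markers summed to 9165 to 16452, 11956 to 16390 and 532 to 4552 FPKM in HLJDD, HFD and ND, with 4 of 5 tested higher and 1 lower in HFD. The labels do not name the stretch of intestine taken. A difference in stretch therefore cannot be told apart from diet or treatment in any comparison with ND below. Within HLJDD and HFD, the proximal markers Slc46a1 and Adh1 varied more than Gata4 and Fabp1. Slc46a1 stood at 39.5 to 157 FPKM in HLJDD and 32.4 to 137 FPKM in HFD. Adh1 stood at 291 to 1567 FPKM in HLJDD and 546 to 1574 FPKM in HFD. The part of stretch in HLJDD against HFD was not tested. The 7 villus enterocyte markers summed to 19550 to 34252 FPKM in HLJDD, 27631 to 35683 FPKM in HFD and 25033 to 38092 FPKM in ND, with 1 of 7 called, Alpi, an alkaline phosphatase, higher in HFD than in ND (log2 change 1.22, limma adjusted p = 0.0172). The 4 colon markers summed to 52.3 to 96.5 FPKM in HLJDD, 22.7 to 80.3 FPKM in HFD and 85.3 to 129 FPKM in ND, with 0 of 3 tested called. Most of that sum was Car4, a carbonic anhydrase that the small intestine also expresses, and Car1 was listed at 0 in every HLJDD and HFD library. Leukocyte markers summed to 79.1 to 246, 125 to 227 and 41.5 to 66.4 FPKM in HLJDD, HFD and ND with 0 of 4 tested called, and adipocyte markers to 15.7 to 60.5, 3.33 to 19.8 and 9.23 to 12.0 FPKM, with 3 of 4 higher in HLJDD than in ND. The part of these cell types in the results was not tested.

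**Figure D1:**
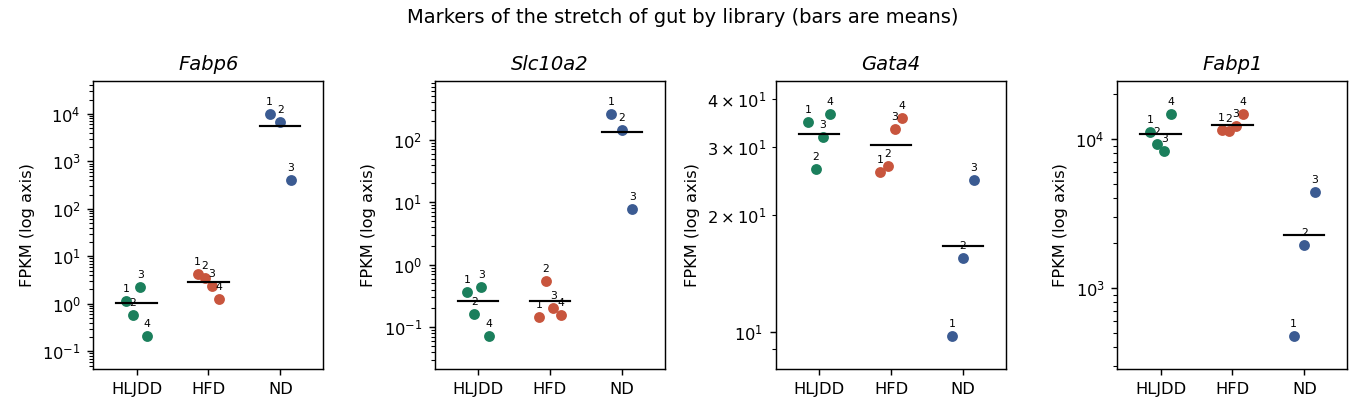
FPKM (log axis) of 4 genes that differ along the small intestine, 1 point per library, with HLJDD, HFD and ND from left to right. Fabp6 and Slc10a2 are high in the ND libraries only, and Fabp1 and Gata4 are lowest there.

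Of the 31 genes, 28 had at least 1 FPKM in at least 3 libraries and entered the test, limma on log2(FPKM + 1) over 10764 genes with Benjamini-Hochberg adjustment and a threshold of 0.05. The filter did not act through 1 group, since all 28 were at 1 FPKM or more in all 11 libraries (lowest value 1.755 FPKM). In ND the highest were the aminopeptidase Anpep with 2170 ± 46.9 FPKM, Naaladl1 with 801.8 ± 141 FPKM and the meprin subunit Mep1b with 692 ± 47.7 FPKM (SD, n = 3). In HFD they were Anpep with 969 ± 356 FPKM, Mep1b with 409 ± 99.7 FPKM and Ace with 289 ± 129 FPKM (SD, n = 4), and in HLJDD the same genes headed the order with 1044 ± 510, 414 ± 123 and 307 ± 142 FPKM. In ND Naaladl1 and Mep1b lay within their spread of each other, and Anpep lay above both. In HFD and HLJDD Ace lay within its spread of genes ranked below it, so its place is not resolved. Among them were Cndp2 (279 FPKM in HFD, 299 in HLJDD) and Ggt1 (267 and 284 FPKM).

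In HFD against ND, 10 of the 28 genes were lower and 0 were higher, beside 11.5% of all tested genes lower and 5.06% higher (16.6% in either direction). The 10 were 1 endopeptidase (Mep1a), 4 brush border exopeptidases (Enpep, Dpp4, Xpnpep2, Naaladl1), 4 apical transporters (Slc6a19, Slc1a1, Slc3a1, Slc7a9) and Slc38a2. The median log2 change was -0.583 over the 28 genes and -0.205 over all tested genes. After median-ratio scaling 11 genes were lower and 1 was higher, beside 11.4% and 11.6% of all genes (23% in either direction). FPKM of the groups did not overlap for 16 of the 28, all lower in HFD, beside 32.9% of all tested genes lower and 9.57% higher without overlap. Without ND 1 the number lower fell to 3, and without ND 2 to 4. Without HFD 1 and HLJDD 2 together 14 were lower and 3 higher. With only the 2 compared groups in the fit, 15 were lower and 0 higher. The genes that newly passed there were Mep1b, Anpep, Cndp2, Lap3 and Slc15a1 (limma adjusted p from 0.0245 to 0.0341). Mep1a, Slc1a1 and Slc7a9 passed in all 20 alternatives. In bulk tissue, fewer cells of a type and less RNA per cell cannot be told apart.

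**Figure D2:**
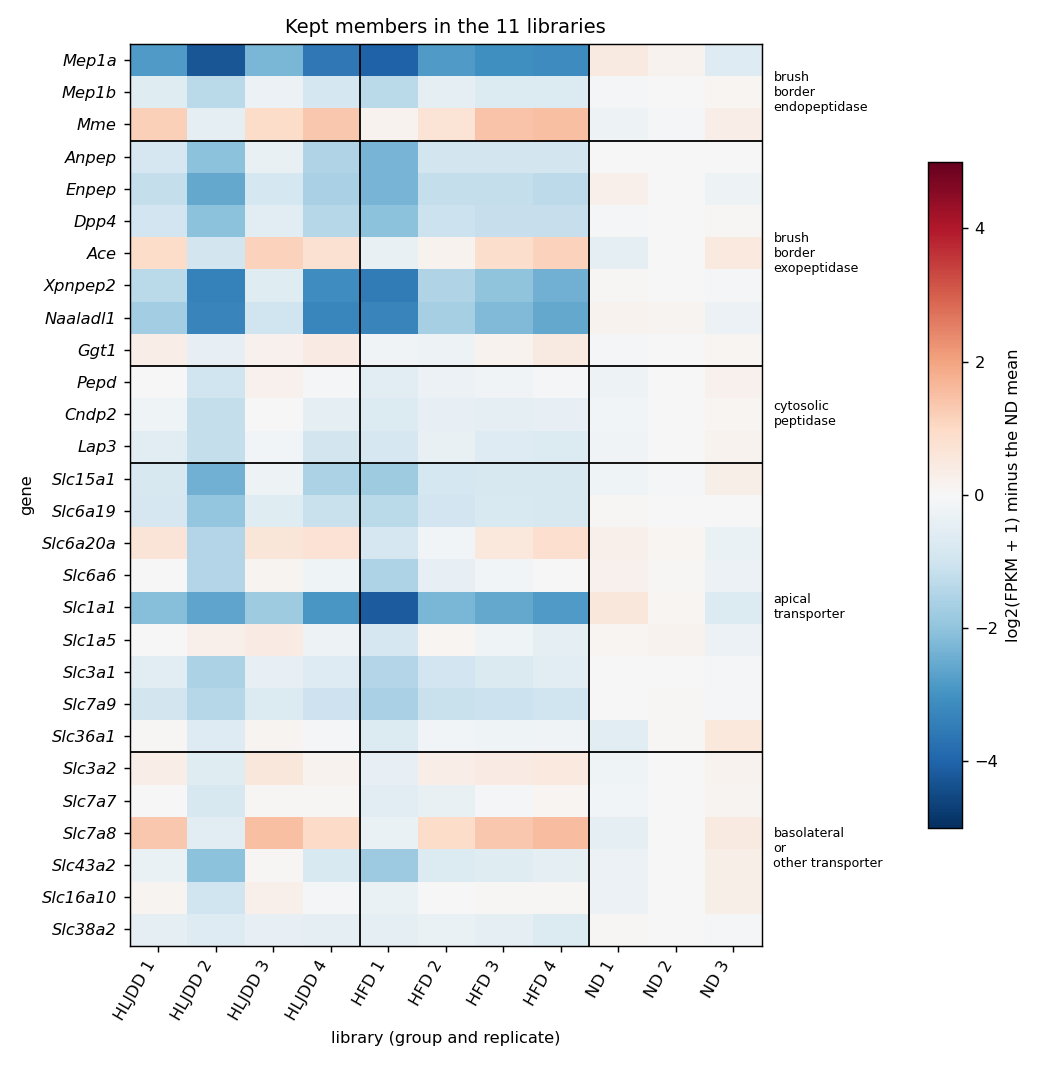
Log2(FPKM + 1) minus the mean of the ND libraries for the 28 tested genes (rows, by role) in the 11 libraries (columns, HLJDD, HFD, ND). Mep1a, Slc1a1, Naaladl1 and Xpnpep2 are the darkest blue (lowest) rows in HLJDD and HFD, and HFD 1 and HLJDD 2 are low in most rows.

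Among the endopeptidases, Mep1a passed the test as lower in HFD than in ND, and Mep1b and Mme did not pass. Mep1a encodes the alpha subunit of meprin, a zinc protease, and lies at chr17:43474324-43504143 (mm10, RefSeq annotation of GRCm38.p6). It stood at 40.7, 14.2, 59.5 and 23.9 FPKM in HLJDD, at 17.1, 40.6, 34.3 and 32.8 FPKM in HFD, and at 406, 340.5 and 191 FPKM in ND. Every ND library was above every other library, with ND 3 the lowest of the 3. HFD averaged 31.2 ± 9.96 FPKM (SD, n = 4) and ND 312 ± 110 FPKM (SD, n = 3), a log2 change of -3.28 with a standard error (SE) of 0.44 (limma adjusted p = 0.000754, 0.000366 to 0.00688 over the alternatives). HLJDD against ND gave -3.26 (SE 0.44, limma adjusted p = 0.000967). Mep1b, the beta subunit, which anchors meprin in the membrane, averaged 414 ± 123 FPKM in HLJDD, 409 ± 99.7 FPKM in HFD (SD, n = 4 each) and 692 ± 47.7 FPKM in ND (SD, n = 3). All its HLJDD and HFD libraries lay below the ND libraries, but its log2 change of -0.79 in HFD against ND missed the threshold (limma adjusted p = 0.0529). It passed after scaling, at -0.53 (limma adjusted p = 0.0308), and without HFD 1 and HLJDD 2, at -0.61 (limma adjusted p = 0.0177).

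The ratio of the 2 meprin subunits within a library does not depend on its scaling. Mep1a over Mep1b was 0.0887, 0.0527, 0.107 and 0.0643 in HLJDD, 0.0628, 0.0792, 0.0802 and 0.0772 in HFD, and 0.632, 0.489 and 0.259 in ND. The ND ratios lay above all others. HFD averaged 0.0749 ± 0.00812 (SD, n = 4) and ND 0.460 ± 0.188 (SD, n = 3), a ratio of geometric means of 0.173. The exact permutation p was 0.0286 in a two-sided test, the smallest that 35 arrangements allow. After adjustment over 12 tests (4 pairs in 3 comparisons) the exact permutation p was 0.147. An adjusted value under 0.05 was possible only if most of the 12 tests reached their smallest p. The adjusted value therefore cannot decide whether the ratios differ. In HLJDD against HFD the ratio differed 1.01-fold (exact permutation p = 0.971).

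**Figure D3:**
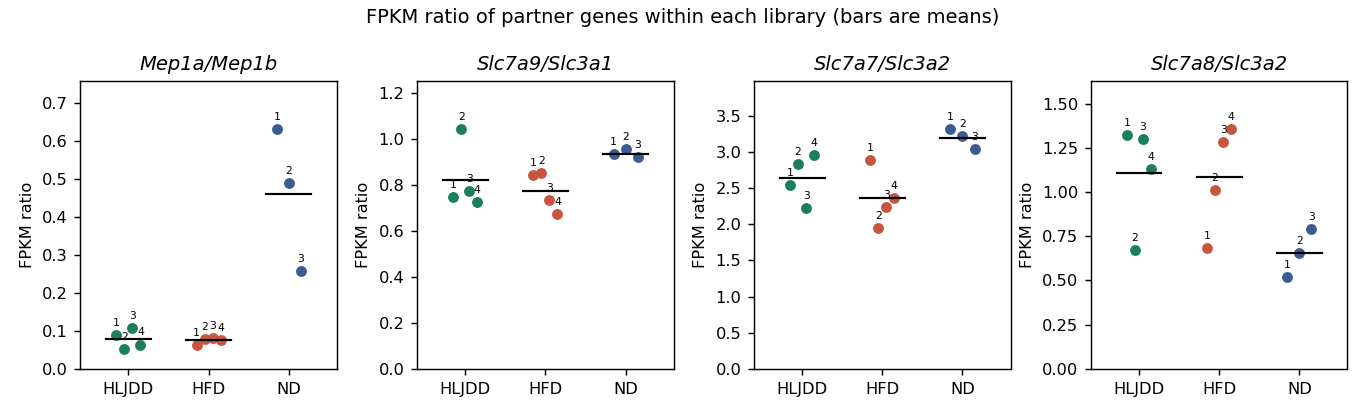
FPKM ratios within each library for 4 gene pairs, with HLJDD, HFD and ND from left to right and 1 point per library. The Mep1a to Mep1b ratio separates the ND libraries (0.259 to 0.632) from HLJDD and HFD (0.0527 to 0.107).

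Mme encodes neprilysin, an endopeptidase that cuts small peptides, at chr3:63295211-63383713. It stood at 173, 53.8, 145 and 196 FPKM in HLJDD, at 85.6, 121, 204 and 217 FPKM in HFD, and at 63.4, 71.2 and 95.5 FPKM in ND. Only HFD 1 overlapped with ND among the HFD libraries, and HLJDD 2 was below all ND libraries. The log2 change in HFD against ND was 0.94 (SE 0.43, limma adjusted p = 0.13). It passed after scaling, at 1.2 (limma adjusted p = 0.0357), and without HFD 1 and HLJDD 2, also at 1.2 (limma adjusted p = 0.00709). Tmprss15, enteropeptidase, which activates trypsinogen in the duodenum, did not enter the test. Its reads were 248, 0, 0 and 520 in HLJDD, 2, 0, 54 and 85 in HFD and 0, 0 and 0 in ND. Reads of this duodenal gene were thus found in 2 of 4 HLJDD and 3 of 4 HFD libraries, and in no ND library.

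Of the 7 tested brush border exopeptidases, 4 were lower in HFD than in ND. Naaladl1, a membrane peptidase of the family of glutamate carboxypeptidase II (chr19:6105781-6115989), stood at 236, 79.5, 394 and 81.2 FPKM in HLJDD, at 80.3, 248, 169.7 and 135 FPKM in HFD, and at 904, 860.3 and 641 FPKM in ND. The ND libraries lay above all others. The log2 change was -2.43 in HFD against ND (SE 0.52, limma adjusted p = 0.00946) and -2.33 in HLJDD against ND (SE 0.52, limma adjusted p = 0.0142). Xpnpep2, the membrane aminopeptidase P, which frees residues in front of proline (chrX:48106913-48136982), stood at 34.8, 7.72, 59.4 and 9.57 FPKM in HLJDD, at 7.18, 31.4, 21.7 and 16.4 FPKM in HFD, and at 94.5, 92.7 and 85.6 FPKM in ND. Its ND libraries were close together and above the rest, while HLJDD spread widely. Its log2 change was -2.35 in HFD (SE 0.62, limma adjusted p = 0.0242) and -2.12 in HLJDD (SE 0.62, limma adjusted p = 0.0441), both against ND.

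Enpep, the glutamyl aminopeptidase that removes acidic residues (chr3:129269177-129332749), stood at 271, 103, 334 and 199 FPKM in HLJDD, at 123, 268, 272 and 249 FPKM in HFD, and at 734, 624 and 514 FPKM in ND. The groups did not overlap with ND, and HLJDD 2 and HFD 1 were the lowest libraries. The log2 change was -1.50 in HFD against ND (SE 0.38, limma adjusted p = 0.0196) and -1.57 in HLJDD against ND (SE 0.38, limma adjusted p = 0.0196). Dpp4, which releases dipeptides that end in proline or alanine (chr2:62330073-62412315), stood at 95.5, 44.2, 127 and 68.6 FPKM in HLJDD, at 44.2, 87.6, 84.3 and 84.5 FPKM in HFD, and at 182, 188 and 194 FPKM in ND. It was lower without overlap, by a log2 change of -1.36 in HFD (SE 0.32, limma adjusted p = 0.0153) and -1.26 in HLJDD (SE 0.32, limma adjusted p = 0.0254), both against ND. In HFD against ND these calls rested on few libraries: without ND 1 the adjusted p of limma was 0.0502 for Naaladl1, 0.0915 for Xpnpep2, 0.0941 for Enpep and 0.0592 for Dpp4. Without ND 2 it was 0.0833 for Xpnpep2, 0.0751 for Enpep and 0.0609 for Dpp4, and Xpnpep2 was lost also without ND 3 (0.0543) or HFD 1 (0.0582). With no filter on low values, Xpnpep2 (0.0744) and Enpep (0.0607) were lost.

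The other exopeptidases did not pass. Anpep, aminopeptidase N, the most abundant of the 28 genes, stood at 1218, 516, 1672 and 769 FPKM in HLJDD, at 436, 1159, 1139 and 1143 FPKM in HFD, and at 2153, 2223 and 2134 FPKM in ND. Its groups did not overlap with ND, with a log2 change of -1.27 in HFD against ND (limma adjusted p = 0.0519, and 0.0333 after scaling). Without HFD 1 and HLJDD 2 it passed, at -0.92 (limma adjusted p = 0.0177). Ace, which removes dipeptides from the carboxyl end, averaged 307 ± 142 FPKM in HLJDD, 289 ± 129 FPKM in HFD (SD, n = 4 each) and 201 ± 67.4 FPKM in ND (SD, n = 3). Ggt1, the gamma-glutamyl transferase that starts glutathione breakdown, averaged 284 ± 63.9, 267 ± 60.3 and 253 ± 17.7 FPKM in HLJDD, HFD and ND. The log2 changes of Ace and Ggt1 in HFD against ND were 0.45 (95% interval -0.60 to 1.51) and 0.05 (-0.43 to 0.52). Folh1, glutamate carboxypeptidase II, which trims folate polyglutamates in human intestine, had at most 3 reads in any library and was not tested.

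**Figure D4:**
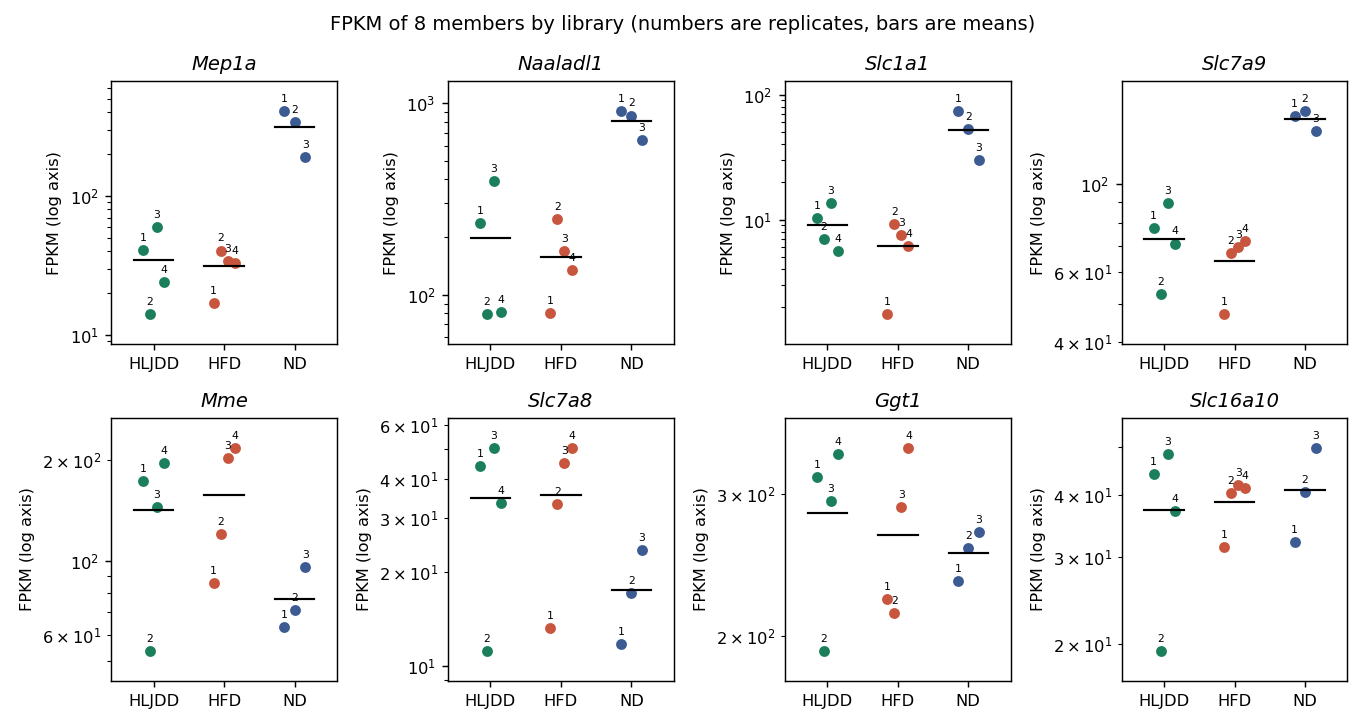
FPKM (log axis) of 8 genes, 1 point per library, with HLJDD, HFD and ND from left to right. Mep1a, Naaladl1, Slc1a1 and Slc7a9 are highest in all 3 ND libraries, Mme and Slc7a8 reach their highest values in HLJDD and HFD, and Ggt1 and Slc16a10 overlap between all groups.

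None of the 3 cytosolic peptidases passed in HFD against ND. Lap3, leucine aminopeptidase, averaged 251 ± 78.7 FPKM in HLJDD, 253 ± 34.5 FPKM in HFD (SD, n = 4 each) and 394 ± 50.5 FPKM in ND (SD, n = 3), a log2 change of -0.64 in HFD against ND (limma adjusted p = 0.0697). Cndp2, a dipeptidase of broad specificity, averaged 299 ± 95.8, 279 ± 23.5 and 392 ± 30.9 FPKM in HLJDD, HFD and ND, and Pepd, prolidase, which splits dipeptides that end in proline, averaged 226 ± 70.7, 209 ± 29.8 and 255 ± 43.0 FPKM. Their log2 changes were -0.49 (limma adjusted p = 0.155) and -0.29 (limma adjusted p = 0.416). Lap3 and Cndp2 passed as lower in HFD without HFD 1 and HLJDD 2, at -0.57 (limma adjusted p = 0.0459) and -0.43 (limma adjusted p = 0.0307).

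Of the 9 tested apical transporters, 4 were lower in HFD than in ND. Slc1a1, which takes up glutamate and aspartate (EAAT3; chr19:28835135-28913960), stood at 10.3, 7.02, 13.6 and 5.58 FPKM in HLJDD, at 1.76, 9.14, 7.46 and 6.09 FPKM in HFD, and at 73.4, 52.7 and 30.0 FPKM in ND. Each ND library was above every other library, with ND 3 the lowest. The log2 change was -2.96 in HFD against ND (SE 0.43, limma adjusted p = 0.00125) and -2.37 in HLJDD against ND (SE 0.43, limma adjusted p = 0.00491). Slc7a9 and Slc3a1 form the carrier of cystine and dibasic amino acids that is defective in cystinuria. Slc7a9, the light chain (chr7:35448727-35466034), stood at 77.4, 52.9, 89.7 and 70.9 FPKM in HLJDD, at 47.1, 67.1, 69.4 and 72.0 FPKM in HFD, and at 148, 152 and 136 FPKM in ND. Its log2 change was -1.19 in HFD (SE 0.19, limma adjusted p = 0.00222) and -1.02 in HLJDD (SE 0.19, limma adjusted p = 0.00615), both against ND and without overlap.

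Slc3a1, the heavy chain (chr17:85028347-85064241), stood at 103, 50.8, 116 and 98.0 FPKM in HLJDD, at 56.0, 78.9, 94.8 and 107 FPKM in HFD, and at 159, 159.6 and 148 FPKM in ND. The ND libraries were above all others, and HLJDD 2 and HFD 1 were the lowest. Its log2 change was -0.92 in HFD against ND (SE 0.28, limma adjusted p = 0.0408) and -0.82 in HLJDD against ND (limma adjusted p = 0.0761). The ratio of Slc7a9 to Slc3a1 was 0.822 ± 0.148 in HLJDD, 0.774 ± 0.0865 in HFD (SD, n = 4 each) and 0.935 ± 0.0184 in ND (SD, n = 3), with an exact permutation p of 0.0857 for HFD against ND (0.147 adjusted). Slc6a19, the main sodium-coupled carrier of neutral amino acids (B0AT1; chr13:73679745-73700780), stood at 175, 81.1, 201 and 141 FPKM in HLJDD, at 122, 160.1, 182 and 177 FPKM in HFD, and at 320.0, 302 and 306 FPKM in ND. It did not overlap with ND and changed by a log2 of -0.96 in HFD (SE 0.26, limma adjusted p = 0.0291) and -1.12 in HLJDD (SE 0.26, limma adjusted p = 0.0181). The calls of Slc6a19 and Slc3a1 in HFD against ND were lost on leaving out any 1 of HFD 1, ND 1, ND 2 or ND 3, with limma adjusted p from 0.0652 to 0.106 for Slc6a19 and from 0.0769 to 0.132 for Slc3a1. With no filter neither passed (0.0723 and 0.0951). Slc3a1 was lost also with TPM (0.0599) and without HFD 2, HFD 3, HLJDD 1 or HLJDD 4, with limma adjusted p from 0.0536 to 0.0671.

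The peptide transporter Slc15a1 (PEPT1, chr14:121459621-121505254) averaged 106 ± 62.8 FPKM in HLJDD, 109.7 ± 31 FPKM in HFD (SD, n = 4 each) and 226 ± 40.6 FPKM in ND (SD, n = 3). No HFD library reached the ND range, but the log2 change of -1.07 in HFD against ND did not pass (limma adjusted p = 0.0921, and 0.0906 after scaling). Slc15a1 passed with only the 2 compared groups in the fit (limma adjusted p = 0.0245) and without HLJDD 2 (0.0303). In HLJDD against ND its log2 change was -1.27 (limma adjusted p = 0.0708), and it passed after median-ratio scaling (0.0421). Slc6a20a, a proline carrier, and Slc6a6, a taurine carrier, did not pass in HFD against ND. Nor did Slc1a5, a carrier of neutral amino acids including glutamine, or Slc36a1, a proton-coupled carrier of small amino acids. The log2 changes of these genes lay between -0.53 and 0.11. Slc6a14, a sodium- and chloride-coupled carrier of neutral and cationic amino acids (chrX:21714900-21742358), had 1, 0, 2 and 0 reads in HLJDD, 0, 2, 1 and 0 in HFD and 50, 43 and 24 in ND. It stayed under the filter and was called lower only where no filter was used (limma adjusted p = 0.00266 for HFD against ND). Its summed reads were 3 in HLJDD, 3 in HFD and 117 in ND.

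Among the basolateral and other transporters, Slc38a2 alone passed. Slc38a2 (SNAT2), a sodium-coupled carrier of small neutral amino acids that cells induce when amino acids are short (chr15:96687392-96699728), stood at 15.5, 13.5, 16.1 and 15.5 FPKM in HLJDD, at 15.1, 16.9, 14.9 and 13.1 FPKM in HFD, and at 22.2, 21.5 and 20.8 FPKM in ND. The ND libraries were close together and above the rest. Its log2 change was -0.50 in HFD against ND (SE 0.12, limma adjusted p = 0.0176) and -0.48 in HLJDD against ND (SE 0.12, limma adjusted p = 0.0241). After median-ratio scaling neither passed, at -0.25 (limma adjusted p = 0.168) and -0.30 (limma adjusted p = 0.122), nor after scaling to reads outside the mitochondrial genome (0.063 and 0.0882). The call in HFD was lost also without ND 1 (0.0798) or ND 2 (0.0789), and that in HLJDD with TPM (0.0678).

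Slc7a8 and Slc7a7 are light chains that pair with the heavy chain Slc3a2, Slc7a8 for neutral and Slc7a7 for cationic amino acids. Slc7a8 stood at 44.3, 11.2, 50.4 and 33.4 FPKM in HLJDD, at 13.3, 33.2, 45.0 and 50.4 FPKM in HFD, and at 11.7, 17.2 and 23.6 FPKM in ND. HFD 2, HFD 3 and HFD 4 were above all ND libraries, and HFD 1 lay within their range. The log2 change in HFD against ND was 0.87 (SE 0.51, limma adjusted p = 0.223) with HFD 1 and HLJDD 2 and 1.27 (limma adjusted p = 0.00708) without them. Slc3a2 changed by 0.20 on the log2 scale (limma adjusted p = 0.598), and by 0.41 without these libraries (limma adjusted p = 0.0389). The ratio of Slc7a7 to Slc3a2 averaged 2.64 ± 0.328 in HLJDD, 2.36 ± 0.391 in HFD (SD, n = 4 each) and 3.19 ± 0.139 in ND (SD, n = 3), and that of Slc7a8 to Slc3a2 averaged 1.11 ± 0.302, 1.08 ± 0.305 and 0.654 ± 0.136, with adjusted exact permutation p of 0.147 for HFD against ND in both. Slc43a2, a carrier of branched-chain and aromatic amino acids, and Slc16a10, the aromatic amino acid carrier TAT1, changed by -0.90 (limma adjusted p = 0.159) and -0.06 (limma adjusted p = 0.877).

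In HLJDD against HFD none of the 28 genes passed, nor did any of the 10764 genes tested (0%; lowest limma adjusted p = 0.999). At an unadjusted p under 0.05 there were 186 genes and 0 of the 28, and limma-voom on the recovered reads gave 0 calls with 172 and 0. FPKM overlapped between the groups for all 28, beside 0.483% of all genes higher and 0.548% lower without overlap. The median log2 change was 0.0476 over the 28 and 0.0611 over all genes. The largest difference was that of Slc1a1, at 0.59 with a 95% interval of -0.28 to 1.47, then Slc1a5 at 0.45 (-0.01 to 0.91). Slc1a5 stood at 12.6, 15.3, 17.2 and 10.4 FPKM in HLJDD and at 6.54, 13.5, 10.8 and 9.10 FPKM in HFD. All 28 intervals held 0, 20 of them lay within 1 log2 unit of 0 on both sides, and the median half-width was 0.604. For a typical member, an observed difference below that size thus gave an unadjusted interval that held 0. To pass after adjustment the observed difference had to be larger still.

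**Figure D5:**
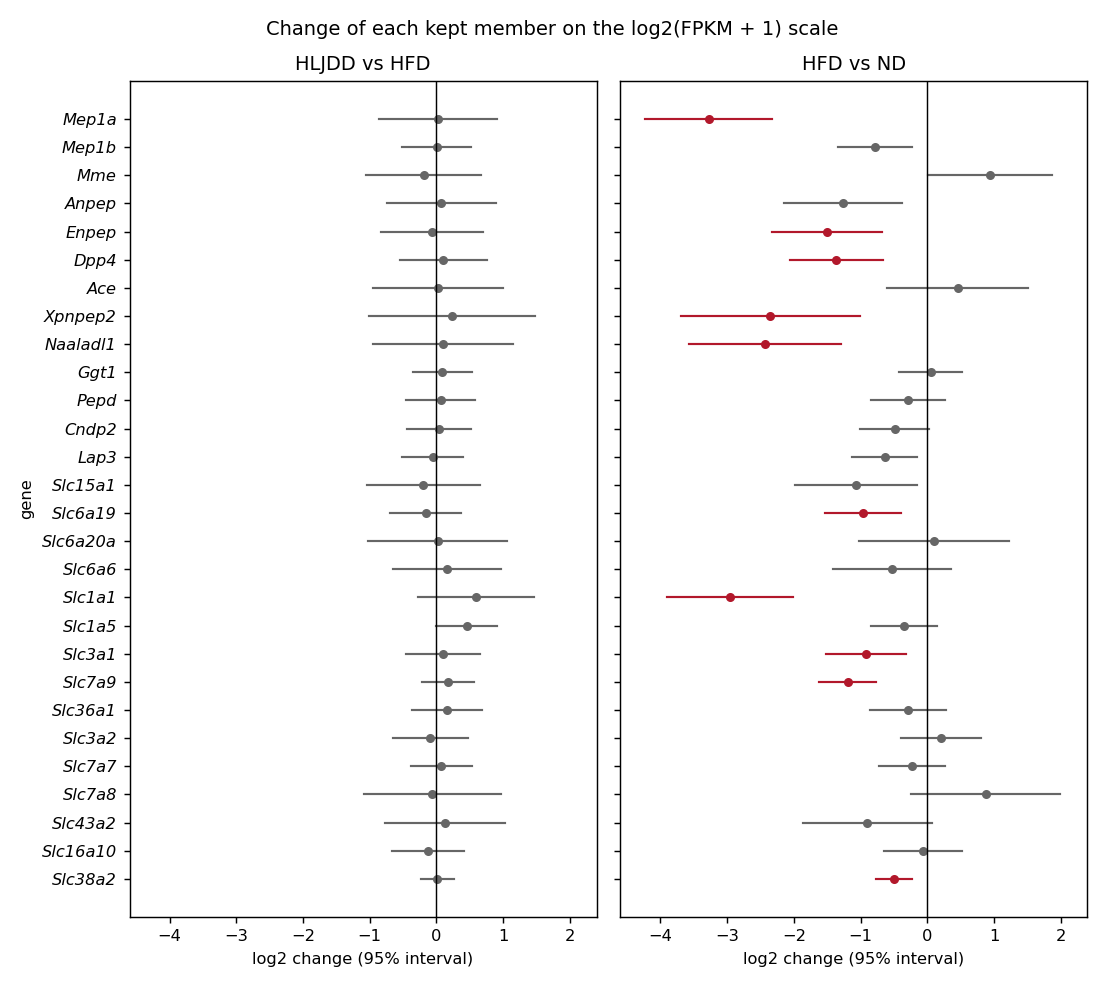
Log2 changes with 95% intervals for the 28 tested genes, HLJDD against HFD on the left and HFD against ND on the right, in red where the limma adjusted p was under 0.05. All intervals on the left cross 0, and the 10 red points on the right are all below 0.

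In HLJDD against ND, 9 of the 28 genes were lower and 0 higher, beside 7.79% of all tested genes lower and 4.1% higher (11.9% in either direction). The median log2 change was -0.588 over the 28 and -0.127 over all genes. Groups did not overlap for 13, all lower, beside 21.3% of all tested genes lower and 8.3% higher without overlap. Without ND 1 or ND 2 the number was 3, and without HLJDD 4 it was 5. Without HFD 1 and HLJDD 2 together 13 were lower and 3 higher: Mme (log2 change 1.16, limma adjusted p = 0.0101), Slc7a8 (1.27, 0.00901) and Ace (0.94, 0.0441). The genes that newly passed as lower included Slc15a1 (-0.89, limma adjusted p = 0.0474), Slc3a1 (-0.56, 0.0131), Mep1b (-0.60, 0.0236) and Anpep (-0.90, 0.0237). Xpnpep2 lost its call in 11 of the 20 alternatives, limma-voom among them (0.0591). Enpep, Dpp4 and Xpnpep2 lost their call without HLJDD 4 (limma adjusted p = 0.052, 0.0733 and 0.123), Slc38a2 without HLJDD 1 (0.0574) or HLJDD 4 (0.0614), and Xpnpep2 without HLJDD 2, HFD 3 or HFD 4 (0.0514 to 0.0851). All of these, with Naaladl1 and Slc6a19, lost it without ND 1 or ND 2, and Dpp4 and Xpnpep2 without ND 3 as well (0.0655 and 0.0861). HFD and HLJDD were compared with the same 3 ND libraries. The values given above for each gene therefore share them. After scaling, 12 of the 28 were lower in HLJDD than in ND, beside 9.18% of all genes lower and 8.61% higher (17.8% in either direction).

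GATA, CDX and HNF factors are known regulators of brush border genes in enterocytes, and the 250 bases before the RefSeq start site (GRCm38.p6) were searched for their motifs on both strands. A promoter was listed for 26 of the 31 genes. Genes with several start sites have several windows, 38 in all. GATAA stood in 10 of the 38 windows (26.3%) and in 22.6% of 32851 promoters of all genes. By gene, it stood in 5 of the 9 members with an entry that were lower in HFD against ND (Mep1a, Enpep, Dpp4, Slc3a1 and Slc7a9) and in 3 of the 17 others with an entry. The by-gene share over all genes was not counted, and this split was not tested. The windows of Mep1a, Dpp4 and Slc7a9 overlapped the annotated gene. TTTATNG, a CDX-like motif, stood in 4 windows and in 9.81% of all promoters, and its subset TTTATTG in 2 and in 4.2%. CAAAGTCCA, an HNF4 motif, stood in 1 window and in 0.384%, and GTTAATNAT, an HNF1-type motif, in 0 windows and in 0.737%. The ATF4-type motifs TGATGNAAT and TTGCATCA stood in 0 and 1 window and in 0.816% and 0.791% of all promoters. Enpep and Slc3a1, lower genes with GATAA whose window lay outside the annotated gene, are shown to place the motifs, 5′ to 3′ on the gene's strand. Capitals mark GATAA, and in Slc3a1 also TTTATTG and CAAAGTCCA.
Enpep, chr3:129332750-129332999, minus strand: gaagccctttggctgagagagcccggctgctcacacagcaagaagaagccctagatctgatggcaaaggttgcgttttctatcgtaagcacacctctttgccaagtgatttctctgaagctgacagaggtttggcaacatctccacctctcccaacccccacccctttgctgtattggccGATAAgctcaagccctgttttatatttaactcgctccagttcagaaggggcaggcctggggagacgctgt
Slc3a1, chr17:85028097-85028346, plus strand: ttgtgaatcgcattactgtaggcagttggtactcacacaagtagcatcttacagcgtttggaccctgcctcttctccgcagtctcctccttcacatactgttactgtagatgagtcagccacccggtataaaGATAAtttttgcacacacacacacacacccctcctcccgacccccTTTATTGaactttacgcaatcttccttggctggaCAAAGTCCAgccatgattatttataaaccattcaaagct
GATAA starts 70 bases before the start site in Enpep and 118 before it in Slc3a1, where TTTATTG starts 73 and CAAAGTCCA 39 bases before it. A match is a description of these letters only.

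Other genes of protein handling were counted in 4 lists. Of 40 other peptidases 31 were tested, and 9 were lower and 2 higher in HFD against ND (10 and 6 after median-ratio scaling), beside 11.5% and 5.06% of all tested genes (11.4% and 11.6% after scaling). Pm20d1, which joins and splits amino acids and fatty acids, averaged 6.53 ± 1.27 FPKM in HFD and 19.1 ± 0.442 FPKM in ND (log2 change -1.43, limma adjusted p = 0.000755). Aspa, which frees aspartate from N-acetylaspartate, averaged 39.8 ± 11 FPKM in HFD and 174 ± 5.65 FPKM in ND (-2.15, limma adjusted p = 0.0014). The cysteine protease Blmh fell by 1.43 on the log2 scale (limma adjusted p = 0.0036), and Acy3, an aminoacylase, rose by 0.99 (limma adjusted p = 0.00723). Of 35 other amino acid transporters 11 were tested, and Slc6a20b, a near copy of Slc6a20a whose reads may be shared with it, was higher (1.15, limma adjusted p = 0.0262) and 0 were lower. The call of Slc6a20b was lost on leaving out any 1 ND library, HFD 1, HFD 3 or HFD 4. Of 15 luminal proteases and partners 5 were tested and 0 called.

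Amino acid metabolism of enterocytes was the last list, with 21 of 26 genes tested, 2 higher and 3 lower in HFD against ND (6 and 4 after median-ratio scaling). Of all tested genes 5.06% were higher and 11.5% lower (11.6% and 11.4% after scaling). Arg2, a mitochondrial arginase, averaged 509 ± 179.9 FPKM in HFD and 142 ± 54.8 FPKM in ND (log2 change 1.84, limma adjusted p = 0.00547). Prodh, which starts proline breakdown, averaged 4.14 ± 1.35 FPKM in HFD and 12.1 ± 1.49 FPKM in ND (-1.38, limma adjusted p = 0.00119). Asns, asparagine synthetase, fell by 1.02 on the log2 scale (limma adjusted p = 0.0219), and Aldh18a1, which makes the proline precursor from glutamate, rose by 0.63 (limma adjusted p = 0.0414). Asns lost its call without ND 1 or ND 2, and Aldh18a1 without ND 1, ND 2, HLJDD 1, HLJDD 4 or any 1 HFD library, while Arg2 and Prodh passed in all 20 alternatives. In HLJDD against HFD, 0 genes of the 4 lists passed. In HLJDD against ND the peptidase list had 2 higher and 4 lower, the transporter and luminal lists 0 in either direction, and the metabolism list 2 higher and 2 lower.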

How the data were processed

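RNA of the intestine of 11 mouse libraries was sequenced. Per the submitters' processing notes, fastp, HISAT2, HTSeq and R 3.2.0 were used with mm10, and no source used here gives the annotation or the strand setting. The authors deposited FPKM per gene symbol, and single files and series table held 0 differences. Whole reads were recovered from the FPKM for 100% of 24294 symbols, at most 0.0017 reads from a whole number. The test covered genes at 1 FPKM or more in 3 or more libraries, with limma 3.58.1 in R 4.3.3 on log2(FPKM + 1), all 11 libraries in 1 fit, two-sided, with no covariate; fold changes understate those of low genes. In simulated HFD against ND data on 10544 genes, 59.2% of 98 genes changed by 1 log2 unit and 98.0% of 99 changed by 2 were called, with 1 false call. The simulation drew genes independently, with a dispersion scaled down from the observed variance of log reads within groups. It held no library with a raised mitochondrial share such as HFD 1 or HLJDD 2. Recovery in the real data can therefore be lower and false calls more frequent. Ratios of 4 pairs were tested by exact permutation. Alternatives were a pseudocount of 0.1, no filter, median-ratio scaling, TPM, 2 groups only, a replicate block, limma-voom on the reads, leaving libraries out, and, chosen after seeing the data, scaling to reads outside the mitochondrial genome. Every member is accounted for, those called in full; of each further list, up to 4 genes with the smallest adjusted p are named. The members, lists and naming rule were chosen with earlier results of these data known. The libraries of a group differed beyond sampling noise, and none was counted as a copy.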

Additional observations from a re-analysis of the deposited data

Results flagged for a closer look

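In the 62 groups of 4 libraries (31 genes in HLJDD and in HFD), 9 had 1 library set apart from the other 3 by Dixon's gap criterion at the 95% level. Chance gives about 1 in 20 for a single group. The genes share their libraries, so the 62 groups are not independent. All 9 fell on HFD 1 or HLJDD 2 and do not count as separate outliers. Those of HFD 1 were Anpep at 435.7 FPKM (others 1139 to 1159), Enpep at 122.7 (248.8 to 272.3), Dpp4 at 44.21 (84.26 to 87.61), Slc15a1 at 63.59 (120.2 to 128.7), Slc36a1 at 13.53 (19.1 to 20.24) and Slc16a10 at 31.33 (40.33 to 41.84). Those of HLJDD 2 were Slc6a20a at 16.56 FPKM (others 73.04 to 79.36), Slc7a7 at 47.13 (84.94 to 87.69) and Folh1, listed at 0 (others 0.01206 to 0.01239, each from 3 reads). In all 9 the library set apart was the lowest, and HFD 1 and HLJDD 2 are the libraries with the largest mitochondrial share (32.44% and 40.73%). The part of that share in these values was not tested.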

How the results depend on the processing

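No call changed direction in the 20 alternatives. Of 1680 values of single genes, 106 changed sign, 71 of them in HLJDD against HFD, and none of the 106 belonged to a called gene or passed. In the same 1680, 1560 stayed on their side of the threshold, 54 newly passed and 66 no longer passed. In HFD against ND (10 genes lower, 0 higher, 1786 of all genes called), the number higher was 1 with median-ratio scaling or scaling to reads outside the mitochondrial genome and 3 without HFD 1 and HLJDD 2 together, and the number of all genes called was 1145 with TPM, 3352 without these 2 libraries and 2963 with the mitochondrial scaling. In HLJDD against ND (9 lower, 0 higher, 1279 of all genes), 5 were lower with no filter, among them Slc6a14, which is outside the 28. Enpep, Dpp4, Xpnpep2, Naaladl1 and Slc6a19 lost their call with no filter (limma adjusted p from 0.05035 to 0.116). Without the 2 libraries 3 were higher, and all genes called were 2575 without them and 2059 with the mitochondrial scaling. In HLJDD against HFD 1 gene of all was called without the 2 libraries and 0 of the 28. Leaving out 1 library at a time gave 3 to 15 lower, 0 to 1 higher and 664 to 3317 of all genes in HFD against ND, 3 to 13, 0 to 1 and 470 to 1696 in HLJDD against ND, and 0 to 1 of all genes in HLJDD against HFD. With a replicate block 8 genes were lower in HFD and 7 in HLJDD against ND, with 1080 and 724 of all genes called. Same-numbered libraries correlated from -0.219 to 0.366 in their deviations, and libraries with different numbers from -0.619 to 0.495. These values gave no sign that the numbers pair the libraries, but with 3 or 4 libraries per group they cannot exclude it. The cause of these shifts was not tested. Folh1, Slc6a14 and Tmprss15 had few or no reads in most libraries, and the part of depth in this was not tested.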
